A study of Mus musculus with 29 samples.

Results

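PU.1 binding was compared between wild-type (WT) microglia and microglia from mice lacking IRF8 (IRF8 knockout, KO), using the deposited peak lists of the 4 adult PU.1 libraries, 2 from each genotype, out of 25 libraries with peak lists in the series. The assay was CUT&RUN, in which a nuclease tethered by an antibody cuts free the DNA around the bound protein, and that DNA is sequenced. Both groups were microglia sorted by flow cytometry from the brains of female mice 3 months of age, strain WT or IRF8KO, fixed in 1% paraformaldehyde for 10 min and stained with the same PU.1 antibody (clone EPR22624). How the IRF8KO allele was made, and whether it is missing in every cell, is not stated in these sources. IRF8 itself was mapped in other adult mice, which carry an IRF8-EGFP fusion, with an antibody against GFP (3 libraries), and H3K27ac and H3K4me1 were mapped in adult WT and KO microglia (2 libraries for each mark and genotype).

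PU.1, encoded by Spi1, is an ETS-family transcription factor that opens enhancers in the macrophage lineage, and microglia do not form without it. IRF8 is an interferon regulatory factor that binds DNA weakly alone and is recruited with PU.1 to composite elements, in which an ETS site (GGAA) is followed after a gap of a pair of bases by an IRF site (GAAA). H3K4me1 marks enhancers, and H3K27ac marks enhancers and promoters that are active. The comparison asks at which sites PU.1 is still found when IRF8 is missing.

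A PU.1 region was counted once for each chromosome, start and end, and overlapping regions of a genotype were merged and kept as its consensus where both of its libraries listed a peak. A WT consensus region was called kept when at least 1 KO list held an overlapping peak and lost when neither did, and a KO consensus region was called KO-only when neither WT list held an overlapping peak. "Lost" therefore means that no peak was listed, not that binding was shown to be 0. There were 5359 WT consensus regions, of which 4012 were kept and 1347 lost, and 4585 KO consensus regions, of which 757 were KO-only.

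The sequences below show examples of the motifs searched in regions of each class, and were chosen for holding a motif, so they do not represent their classes. The composite motif was present at 11.2% of lost and 6.7% of kept regions and the ETS core at 37.8% and 41%, and among the 12 strongest lost and the 12 strongest KO-only regions 2 of each held the composite motif. Each sequence is read from mm10 in the direction in which its motif is written, with the motif in capitals. The first pair are the lost regions that had a composite motif (GGAA, any 2 bases, GAAA) among the 12 strongest lost regions. The Commd8 window (chr5:72184386-72184515, plus strand) lies between genes and the Tyk2 window (chr9:21125528-21125657, minus strand) in an intron of Tyk2, a kinase of the interferon receptors.
Commd8: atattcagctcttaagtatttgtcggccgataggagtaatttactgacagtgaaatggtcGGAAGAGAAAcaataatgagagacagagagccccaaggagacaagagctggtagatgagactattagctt
Tyk2: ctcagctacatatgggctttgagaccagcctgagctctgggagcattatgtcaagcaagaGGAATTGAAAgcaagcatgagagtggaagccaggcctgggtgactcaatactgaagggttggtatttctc
Lost regions with the same motif at listed microglial genes were an intron of P2ry12 (chr3:59225546-59225675, minus strand), the purinergic receptor that marks resting microglia, and an intron of Tgfbr2 (chr9:116166336-116166465, plus strand), a receptor for TGF-beta. These were chosen after their values were seen.
P2ry12: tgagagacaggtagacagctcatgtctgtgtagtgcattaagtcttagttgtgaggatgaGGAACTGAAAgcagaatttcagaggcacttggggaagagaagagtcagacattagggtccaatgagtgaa
Tgfbr2: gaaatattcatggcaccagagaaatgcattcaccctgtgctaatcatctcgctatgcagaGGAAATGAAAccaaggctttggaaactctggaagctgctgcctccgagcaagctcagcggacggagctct
Of the 8 strongest kept regions 5 had an ETS core, GGAAGT, and none had a composite motif; 3 of the 5 are shown. They lie near Mbnl1 (chr3:60468914-60469039, minus strand), near Actb (chr5:142909558-142909683, minus strand) and in Rbm47 (chr5:66075312-66075437, minus strand).
Mbnl1: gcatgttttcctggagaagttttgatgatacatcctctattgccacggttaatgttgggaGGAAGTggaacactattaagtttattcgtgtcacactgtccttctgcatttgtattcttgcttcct
Actb: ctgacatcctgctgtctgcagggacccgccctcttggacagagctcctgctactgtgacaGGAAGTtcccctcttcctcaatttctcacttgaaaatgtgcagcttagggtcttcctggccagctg
Rbm47: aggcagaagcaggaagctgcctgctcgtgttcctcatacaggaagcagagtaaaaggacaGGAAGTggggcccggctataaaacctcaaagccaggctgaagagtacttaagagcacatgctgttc
Among the strongest KO-only regions, those with an ETS core included sites in Dpysl2 (chr14:66845687-66845812, minus strand) and upstream of Ccr2 (chr9:124068502-124068627, plus strand), the chemokine receptor of inflammatory monocytes. The KO-only region at the Apoe promoter (chr7:19699395-19699524, minus strand), chosen after its values were seen, had a composite motif.
Dpysl2: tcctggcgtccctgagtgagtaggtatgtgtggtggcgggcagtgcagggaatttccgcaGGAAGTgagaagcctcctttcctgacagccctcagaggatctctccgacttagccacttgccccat
Ccr2: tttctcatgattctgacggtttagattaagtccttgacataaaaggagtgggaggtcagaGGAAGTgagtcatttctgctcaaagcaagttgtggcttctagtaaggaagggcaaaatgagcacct
Apoe: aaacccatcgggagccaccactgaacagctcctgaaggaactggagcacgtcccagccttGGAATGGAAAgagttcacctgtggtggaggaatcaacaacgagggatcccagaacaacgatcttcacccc

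The WT libraries had 8.95 and 17.3 M fragments (M, mega) and the KO libraries 13.6 and 13.3 M. They listed 14057 and 9490 regions in WT and 10182 and 12509 in KO. The deepest library thus had the shortest list. The mean was 11774 ± 3230 regions in WT and 11346 ± 1650 in KO (SD, n = 2 each), a log2 difference of -0.03 that is well within the spread between libraries (p = 1 by a two-sided exact permutation test). With 2 against 2 libraries that test cannot give a p under 0.33. Nothing in the labels says that libraries of a genotype came from separate mice. The authors used a q-value of 0.01 and 1 IgG control for replicate 1 and a q-value of 0.05 and another IgG control for replicate 2, in both genotypes alike.

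Much of each list was not found again in the other library of the same genotype. Of WT replicate 1 regions, 38.3% were also in WT replicate 2, and 56.8% the other way. In KO the shares were 45.3% and 36.9%. Of the merged regions of a pair, the WT libraries shared 29.6% and the KO libraries 25.4%, while pairs of 1 WT and 1 KO library shared 20.5% to 26%. WT replicate 2 and KO replicate 1, at 26%, thus shared more than the 2 KO libraries did. The plot of the lists by sharing shows the regions found in 1 library only, which made up 33.1% to 51.8% of a list.

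**Figure D1:**
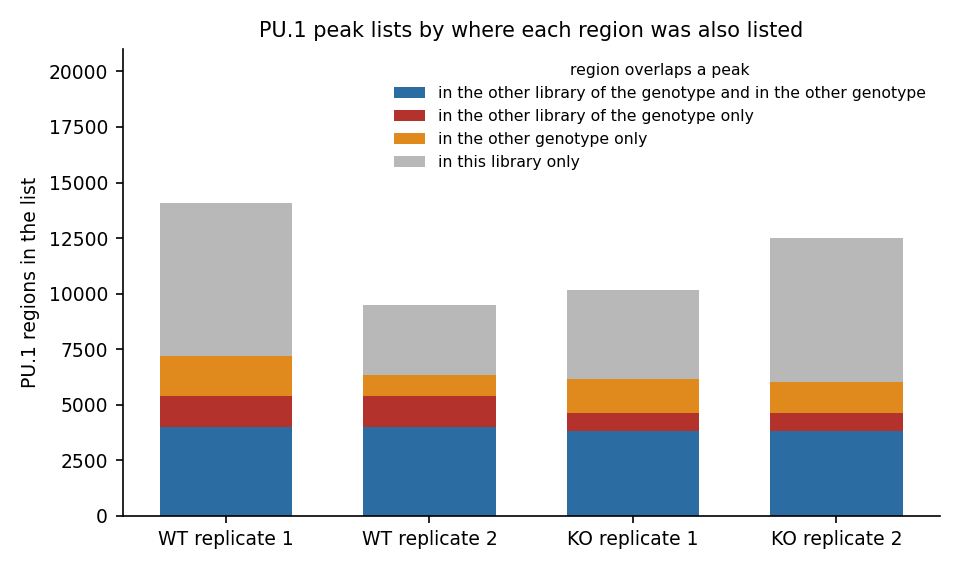
Regions in each of the 4 PU.1 peak lists (y axis, number of regions), stacked by where else an overlapping peak was listed. The part shared with the other library of the genotype and with the other genotype (bottom) is of like size in all lists, from 3820 to 4004 regions, and the part in that library only (top) varies most, from 3137 to 6860.

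The gene that was knocked out could not be checked here, since no expression was measured and an antibody against PU.1 does not read IRF8. At Irf8 (chr8:120736358-120756694), WT lists held 3 and 1 PU.1 regions within 10 kb and KO lists 2 and 2. The highest fold enrichment over the control was 6.56 and 3.79 in WT and 6.95 and 4.16 in KO, so the groups overlapped. No Irf8 region was in the consensus of either genotype. At Spi1 (chr2:91082390-91115756), lists held 3 and 3 regions in WT and 3 and 2 in KO, and both WT consensus regions, at the promoter and 2.21 kb into the gene, were kept in both KO libraries.

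As a check of the cell type, 9 of 10 microglial marker genes had a WT H3K27ac consensus region at their promoter (all but Tmem119), and 0 of 6 neutrophil and 0 of 5 neuronal markers did. In KO, H3K27ac was listed at 5 of the 10 microglial promoters, and 7 in KO replicate 1, the deeper library. The lists differ in length over all regions too: the H3K27ac consensus held 36697 regions in WT and 10555 in KO, and KO replicate 1 listed 88400. PU.1 consensus regions lay at 5 microglial promoters in WT (P2ry12, Cx3cr1, Siglech, Gpr34 and Fcrls) and at 2 in KO (P2ry12 and Fcrls). Over all WT regions, 48% lay outside the KO consensus. None of the 4 WT regions nearest to Gpr34 was lost by the rule above. Of 6 genes that mark macrophages of the brain borders, 3 had promoter H3K27ac in WT (Mrc1, Pf4 and Cbr2) and 4 in KO (Mrc1, Cd163, Pf4 and Ms4a7), and PU.1 was listed at 0 in WT and 1 in KO (Pf4). At the markers of other cell types, PU.1 was listed at 1 promoter in WT, that of the endothelial gene Cdh5, and at 0 in KO. Monocyte promoters had H3K27ac at 1 of 5 genes in WT (Plac8) and 0 in the KO consensus, with Ccr2 and F13a1 in KO replicate 1 alone. Ly6c2 and Chil3, monocyte markers too, were at 0 in all of these lists. For T cells, B cells, astrocytes, oligodendrocytes and endothelial cells, 1 of 6, 2 of 5, 1 of 5, 2 of 5 and 3 of 5 markers had promoter H3K27ac in the WT consensus and 0 of each in the KO consensus. In KO replicate 1 alone 1, 2, 2, 1 and 1 of them did. The part of these other cells in the results below was not tested.

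Of the 5359 WT PU.1 regions, 2791 (52.1%) were listed in both KO libraries, 1221 (22.8%) in 1 and 1347 in neither. The lost share was 25.1% (Wilson 95% interval 24% to 26.3%). Of the 4585 KO regions, 2806 (61.2%) were in both WT lists, 1022 (22.3%) in 1 and 757 in neither, a KO-only share of 16.5% (15.5% to 17.6%). These intervals cover counting over regions only, not the difference between mice. Differences between classes of regions are given below as descriptions, with no test, since regions are not replicates. When WT replicate 1 was set against KO replicate 1, which share a control and threshold, 66.4% of the WT list was absent from KO and 53.6% of the KO list absent from WT. For replicate 2 these were 57.5% and 67.7%. In each pair the higher share belonged to the longer list, which follows from counting, since both lists of a pair hold about as many shared regions. Counting as lost every WT region outside the KO consensus gave 48%, and the matching rule gave 39.1% of KO regions. With a single KO list in place of 2, the lost share was 35.6% or 37.4%. With a single WT list, the KO-only share was 24.3% or 31%.

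The KO region nearest to a lost region lay a median of 21.3 kb away, within 1 kb for 53 lost regions (3.93%) and within 10 kb for 430 (31.9%). For KO-only regions the nearest WT region lay a median of 19 kb away, within 1 kb for 31 (4.1%) and within 10 kb for 258 (34.1%). In the mice labelled female, 13 WT consensus regions were on chromosome Y, and 10 of them were lost. On assembled autosomes and chromosome X without repeat-rich regions, the lost share was 24.7%.

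The strength of a region is its mean percentile of −log10 p among all regions of each list, since the authors' values can be ranked only within a list. Lost regions were weaker in WT than kept ones. Their median strength was 55.5, against 62.3 for regions in 1 KO library and 77.3 for regions in both. Their median fold enrichment was 6.11 in WT replicate 1 and 4.83 in WT replicate 2, against 8.77 and 6.21 for regions in both KO libraries. KO-only regions had a median strength of 57.3, against 79.2 for KO regions in both WT libraries, with fold enrichments of 5.49 and 4.97 against 7.32 and 6.5. With a single WT list in place of the WT consensus, the difference in median strength between lost and kept regions was -32.3 or -34, against -17.2, and with a single KO list that between KO-only and shared KO regions was -45 or -36.5, against -17.7. By quartile of strength, from weakest to strongest, the lost share was 41.5%, 28.8%, 19% and 11.3%. The KO-only share was 29.9%, 17.8%, 12.9% and 5.41%. Strong regions were therefore among the lost ones as well, 151 of 1340 in the top quartile.

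**Figure D2:**
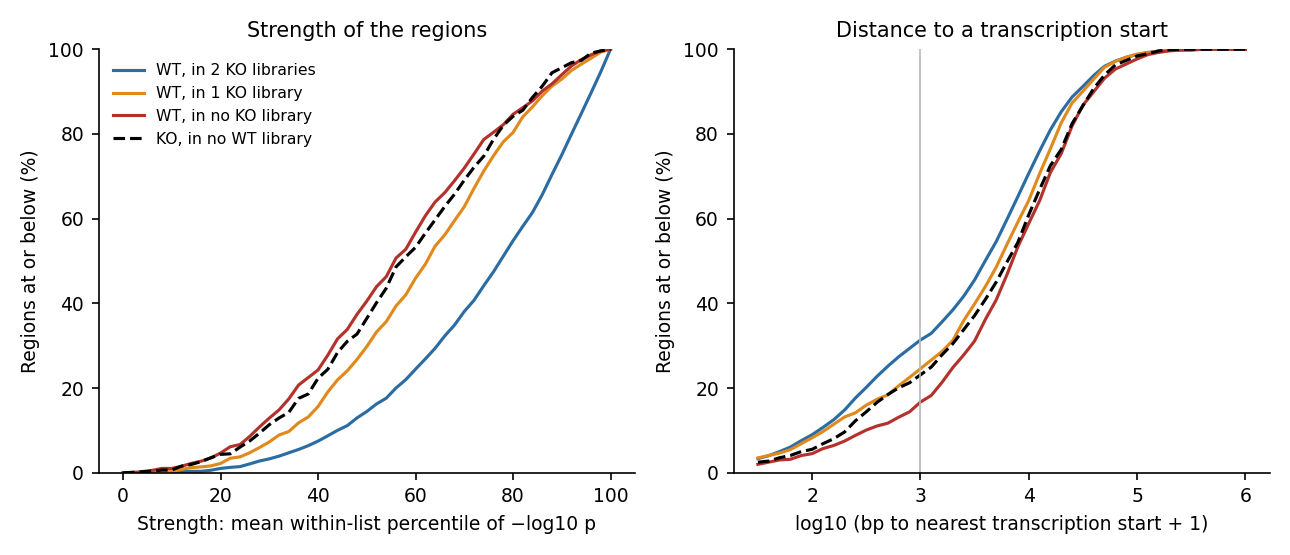
Cumulative share of regions (y axis, percent) by strength (left, mean within-list percentile of −log10 p) and by distance to the nearest transcription start (right, log10 bp, grey line at 1 kb), for WT regions in 2, 1 or 0 KO libraries and for KO-only regions. Lost (median strength 55.5) and KO-only regions (57.3) are weaker than regions in both KO libraries (77.3), and 16.7% of lost regions lie within 1 kb of a start against 31.4% of regions in both.

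A smaller share of lost than of kept regions lay at promoters. A region whose centre was within 1 kb of an annotated transcription start (GENCODE vM21) was called promoter, and all others distal. Of all WT regions 26.1% were at promoters, with 31.4% of those in both KO libraries, 24.6% of those in 1 and 16.7% (225 of 1347) of the lost. Read the other way, 16.1% of the 1401 promoter regions were lost and 28.3% of the 3958 distal ones. Promoter and distal regions were about equally strong, at median strengths of 69 and 68.4. In each quartile of strength the lost regions had the lower promoter share, from 19.8% against 31.6% in the weakest to 9.93% against 28.7% in the strongest. Within replicate 1 the promoter shares of absent and present WT regions were 18.6% and 31.1%, and within replicate 2 they were 18.4% and 30.4%. Introns held 50% of lost and 45.8% of kept regions, and the median lost region was 12.4 kb from the nearest protein-coding start, against 8 kb for kept. KO-only regions were at promoters in 23.1% of cases, against 31.6% of the KO regions shared with WT, a difference of -8.44 percentage points that was -4.17 without WT replicate 1 and -15.3 without KO replicate 1. The weakest quartile, with 343 of the KO-only regions, showed no difference, at 31.5% against 31.6%. In the other quartiles, from weaker to stronger, the shares were 18.6% against 32.7%, 16.2% against 30% and 8.06% against 31.9%.

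IRF8, mapped in the IRF8-EGFP mice, overlapped most regions of the WT PU.1 consensus, lost ones included. Of kept regions 89.6% overlapped an IRF8 consensus region, and of lost regions 80.8%. Per IRF8 library the shares were 86.8%, 94.6% and 70.7% of kept and 77.6%, 89.8% and 61.7% of lost regions, lower for lost in 3 of 3. Within quartiles of strength the mean difference shrank from -8.83 to -4.1 percentage points. In the strongest quartile the shares were 95.4% of lost and 97.3% of kept. In single lists the gap was wider: within replicate 1 IRF8 overlapped 40.9% of the WT regions absent from KO and 84.8% of those present, and within replicate 2 it overlapped 49.4% and 86%. With WT replicate 2 alone, or WT replicate 1 alone, in place of the WT consensus, the difference was -41.6 or -46.5 percentage points. Of KO-only regions 39.4% overlapped IRF8, against 86% of the KO regions shared with WT, and per IRF8 library the shares were 36.6%, 57.5% and 23.5% against 83.3%, 92.3% and 66.1%. In the strongest quartile of KO regions the shares were 29% and 92.2%.

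In the WT consensus, lost and kept regions differed more in KO H3K27ac than in the other histone readouts. With a single WT list in place of the consensus this order did not hold: the difference was -31.9 or -32.5 percentage points for KO H3K27ac, -35.2 or -40.2 for WT H3K27ac and -36.2 or -38.2 for KO H3K4me1. For the consensus regions, a WT H3K27ac consensus region overlapped 88.1% of lost and 92.1% of kept PU.1 regions. In KO it overlapped 19.9% of lost and 47.8% of kept regions. The KO H3K27ac libraries were of unequal depth, at 14.7 and 8.57 M fragments. In KO replicate 1 the shares were 52.5% of lost and 79.1% of kept, and in KO replicate 2, the shallower, 21.4% and 49%. The difference was -27.9 percentage points over all regions and -27.6 as the mean within quartiles of strength.

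In the same consensus regions H3K4me1 overlapped 95.2% of lost and 96.1% of kept regions in WT, and 83.7% and 96.1% in KO. With a single WT list the WT H3K4me1 difference was -31.1 or -34.1 percentage points, against -0.937 for the consensus. Per KO library the shares were 84.3% and 90% of lost and 95.6% and 96.8% of kept. For KO-only regions the shares were 87.8% in WT and 95.5% in KO. H3K27ac overlapped 71.7% of KO-only regions in WT, against 90.7% of shared KO regions, and 42.1% in KO, against 49%. With KO replicate 2 alone, or KO replicate 1 alone, in place of the KO consensus, the differences of KO-only from shared regions were -61.5 or -49.6 percentage points for WT H3K27ac (against -19), -32.3 or -25.7 for KO H3K27ac (against -6.82), -55 or -41.2 for WT H3K4me1 (against -7.9) and -50.6 or -36.8 for KO H3K4me1 (against -1.33). By the consensus lists, which in KO come from libraries of unequal depth, H3K27ac in KO but not WT was found at 52 KO-only regions (6.87%) and 24 shared ones (0.627%).

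**Figure D3:**
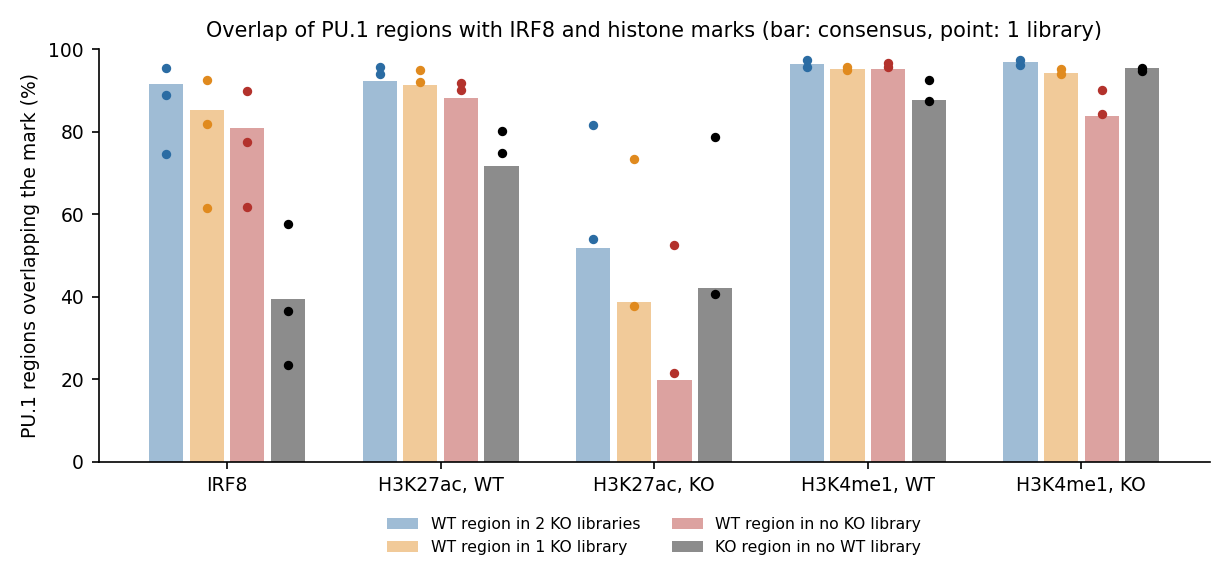
Share of PU.1 regions (y axis, percent) overlapping IRF8 or a histone mark, by class of region. Bars are the overlap with the consensus of the mark's libraries and points the overlap with each of its libraries (3 for IRF8, 2 for each histone mark and genotype). Lost regions stand lowest for H3K27ac in KO (19.9% by consensus) and KO-only regions lowest for IRF8 (39.4%).

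The composite motif was searched as GGAA, any 2 bases and GAAA, on both strands within 100 bp of the region centre. It was present at 7.84% of WT PU.1 regions, against 1.81% of windows of the same length 1 kb away and 1.76% of 32851 RefSeq promoter windows of that length. Among lost regions it was present at 151 of 1347 (11.2%), against 6.38% of the regions in both KO libraries and 7.45% of those in 1. KO-only regions had it at 4.62% and shared KO regions at 5.46%. Of WT regions with the motif 36% were lost, and of those without it 24.2%. Among distal regions with the motif 39.6% were lost. Regions with the motif were not weaker than others, at a median strength of 72.5 against 68.3.

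In all 4 quartiles of strength the motif share was higher in lost than in kept regions, at 9.17% against 4.34% in the weakest, 11.9% against 5.97%, 10.6% against 7.65%, and 17.9% (27 of 151) against 7.99% in the strongest. The difference depends on how regions and windows are chosen. With the WT consensus replaced by WT replicate 2 alone it was 0.172 percentage points, and by WT replicate 1 alone it was -0.701, against 4.51 for the consensus. Of these lists, 56.8% and 38.3% of the regions had a partner in the other WT list. Around the strongest summit in place of the centre, the motif was found within 100 bp at 4.83% of lost and 4.01% of kept regions. Summits lay beside the motif rather than on it: in lost regions 94 matches were within 100 bp of the summit and 226 at 100 to 200 bp, and in kept regions 179 and 335. Within 200 bp of the summit, a window chosen after seeing the data, the shares were 20.7% and 12%, and in the whole region 24.4% and 18.4%.

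For motifs that hold an ETS site alone, the share was lower in lost regions. The ETS core GGAAGT was present at 37.8% of lost and 41% of kept regions, and a longer PU.1 box, GAGGAAGT, which contains the core, at 11.1% and 15.1%. Windows 1 kb from WT regions had them at 10.9% and 1.03%, and the RefSeq promoter windows at 18% and 2.41%. A repeated IRF site (GAAA, any 2 bases, GAAA) was present at 3.49% of lost and 3.27% of kept regions, 2.8% of the windows 1 kb away and 2.07% of the promoter windows. A match is a description of the letters and not a measured site.

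**Figure D4:**
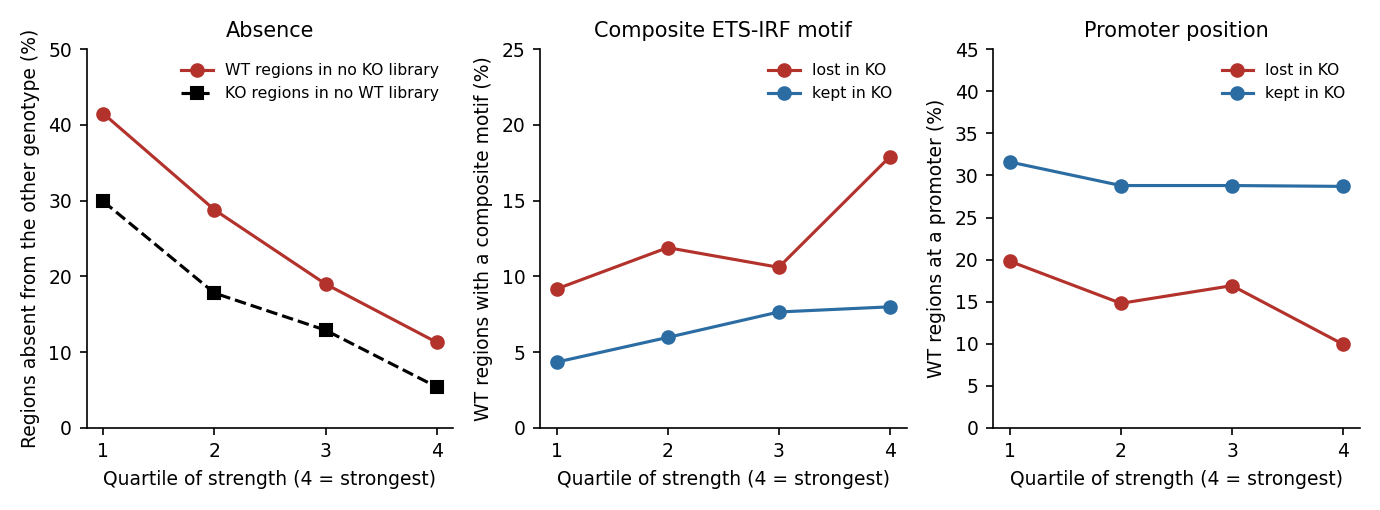
By quartile of region strength (x axis, 4 is strongest): the share of regions absent from the other genotype (left), and for WT regions the share with a composite motif (middle) and at a promoter (right), all in percent of regions. Absence is lower in each stronger quartile in both directions (from 41.5% to 11.3% for WT regions), and in every quartile lost regions have the higher share with a composite motif and the lower share at a promoter.

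The 12 strongest lost regions had fold enrichments of 10.4 to 24.7 in WT replicate 1 and 10.8 to 19.3 in WT replicate 2 and no peak in either KO list. All 12 overlapped IRF8 and WT H3K27ac, 2 overlapped KO H3K27ac (near BC067074 and Bcl2l11), and 10 were intronic. These counts are near the shares in the strongest quartile for the marks. There IRF8, WT H3K27ac and KO H3K27ac overlapped 95.4%, 94.7% and 16.6% of lost regions, and 97.3%, 94.1% and 55.1% of kept ones. Of all lost regions 50% were intronic. The first was in an intron of Trappc9 (chr15:73034644-73035309), with folds of 24.7 and 19.3 and the nearest KO region 32121 bp away. The region with a composite motif upstream of Commd8 (chr5:72183993-72184751) had folds of 23.2 and 14.6, and that in Tyk2 (chr9:21125207-21126133) 16.5 and 12.4. Others included an intron of Plscr1 (chr9:92269731-92270463), an interferon-induced phospholipid scramblase, with folds of 10.4 and 12.8. A site 2.77 kb upstream of Mpeg1 (chr19:12457342-12458669), which encodes a pore-forming protein of macrophages, had folds of 13.4 and 12.8. One in Fyn (chr10:39412960-39413776), a Src-family kinase, had 15.1 and 12.4. The region nearest to Bcl2l11, the pro-death BH3 protein BIM, lay 58.7 kb from its start (chr2:128067170-128067592) and had folds of 13.4 and 15.9. The rest were nearest to Gng10, Rab3ip, Pla2g4a and Tex9.

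Among the 8 strongest kept regions, the region 3.94 kb upstream of Mbnl1 (chr3:60468341-60469445) had folds of 105 and 62.1 in WT and 62.2 and 52.4 in KO, and that upstream of Actb (chr5:142909224-142910027) 40.5 and 31.3 in WT and 25.5 and 43.3 in KO. All 8 overlapped IRF8 and 6 overlapped KO H3K27ac, against 97.3% and 55.1% of kept regions in the strongest quartile. The others were near Fam49b, Nfatc1, Rnf5, Rbm47, Rab14 and Pold4.

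The 12 strongest KO-only regions had folds of 10.2 to 21.6 in KO replicate 1 and 6.81 to 15.3 in KO replicate 2. Of these 5 overlapped IRF8, 5 overlapped WT H3K27ac and 7 KO H3K27ac. Among KO-only regions of the strongest quartile the shares were 29%, 61.3% and 54.8%. The first lay in Dpysl2 (chr14:66844710-66846675), with folds of 17.9 and 14.9, and a WT region began 642 bp away. A region 33.3 kb upstream of Ccr2 (chr9:124067931-124069297) had folds of 15.4 and 15.3 with no H3K27ac in either genotype, and H3K4me1 in both. Near Runx3 (chr4:135181797-135182139), a RUNX factor of lymphoid and myeloid cells, the folds were 16.1 and 12.6. At the promoter of Clec12a (chr6:129349484-129350504), an inhibitory myeloid lectin receptor, they were 13.2 and 10.3, with H3K27ac in KO and not in WT, no IRF8, and the nearest WT region 83.6 kb away. The rest were nearest to Slc22a27, Slc13a3, Zfp236, Syt2, Lrrfip1, Scgb2b26, Serpinb8 and Pcbp1.

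Regions were assigned to the protein-coding gene with the nearest start, up to 100 kb away. Of 4919 assigned WT regions 24.4% were lost, and of 4232 KO regions 16.1% were KO-only. At 215 listed microglial and immune genes, 46 of 288 WT regions (16%) were lost and 22 of 237 KO regions (9.28%) were KO-only, both below the shares over all genes. Every WT region was lost at 13 of the 132 listed genes that had any, against 673 of 3325 over all genes. Listed genes also had stronger WT regions, at a median strength of 72.8 against 68.6. Lost regions at listed genes overlapped IRF8 in 42 of 46 cases and KO H3K27ac in 15, while their kept regions did so in 223 and 130 of 242. Composite motifs at listed genes did not follow the pattern over all regions, with 2 of 46 lost and 26 of 242 kept regions holding one.

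**Figure D5:**
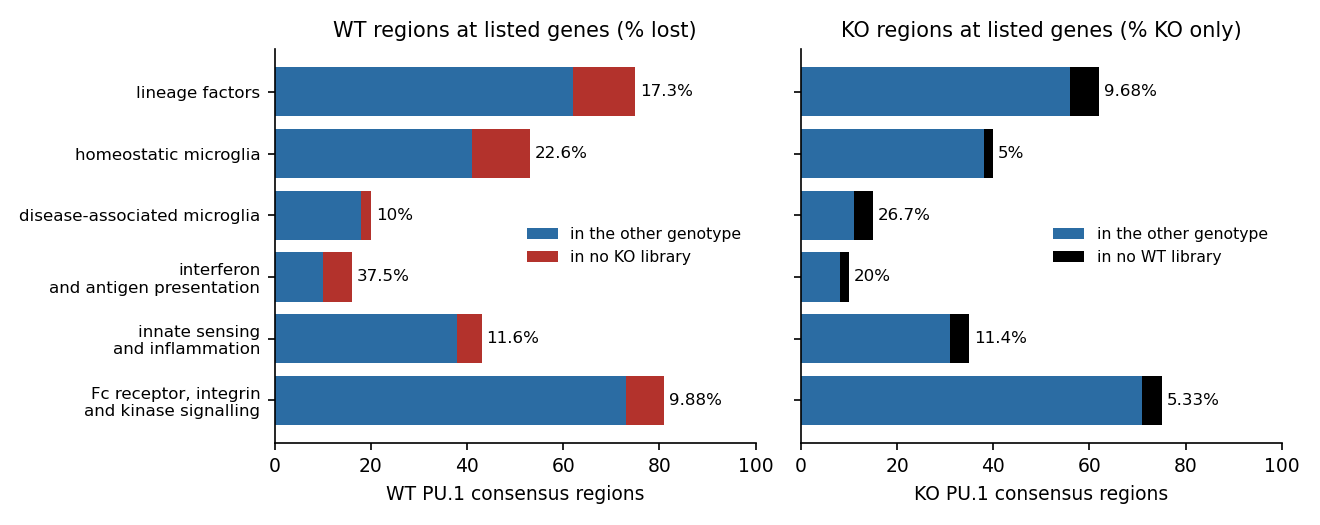
PU.1 consensus regions nearest to genes of the 6 lists, WT regions on the left and KO regions on the right (x axis, number of regions), divided into those found in the other genotype and those absent from it, with the absent share in percent at the end of each bar. Absent regions are a minority in every list, from 9.88% to 37.5% of WT regions, the highest share being 6 of 16 regions at interferon and antigen presentation genes.

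Lineage transcription factors and TGF-beta receptors held 75 WT regions, 13 of them lost (17.3%, below the 24.4% over all genes), and 62 KO regions, 6 of them KO-only (9.68%, below the 16.1% over all genes). Both WT regions at Tgfbr1, with folds of 6.56 and 5.86 at chr4:47333062-47334178 and 4.54 and 4.14 at chr4:47356667-47357092, were lost, as were 2 of 5 at Tgfbr2, which also had 1 KO-only region. The only region at Sall1, the zinc-finger factor that maintains microglial identity, lay 66.9 kb upstream (chr8:89110738-89111358), had folds of 6.56 and 4.13 and was lost. Batf3, an AP-1 partner of IRF8 in dendritic cells, lost 2 of 3 regions, Fli1 2 of 5, Etv6 3 of 9 and Klf6 1 of 2. At Batf3 the weaker lost region (strength 21.1) lay 573 bp from a KO region. No region was lost at Spi1, Irf2 (7 regions), Fos (5), Mef2a (4), Junb (3) or Ikzf1 (3). KO-only regions were nearest to Atf3 (2, both weak, with strengths of 2.25 and 28.5), Irf1, Irf2 and Mef2a.

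Homeostatic microglial genes held 53 WT regions, 12 of them lost (22.6%, near the 24.4% over all genes), and 40 KO regions, 2 of them KO-only (5%, against 16.1%). The lost P2ry12 region (chr3:59225228-59225827), at a strength of 90.9 and with folds of 10.6 and 9.14, lay 2.93 kb from a KO region, and the gene's other 4 regions were kept in both KO libraries. The lost Cx3cr1 region (chr9:120068002-120070056), at the promoter of the fractalkine receptor, was weak, with folds of 6.05 and 3.45. The only region at Siglech, at its promoter (chr7:55767915-55768444), had folds of 6.56 and 3.18 and was lost. Cst3, which encodes cystatin C, lost 3 of 4 regions, and the single regions of Olfml3, Slc2a5 and Ltc4s were lost. Bin1 lost 1 of 6. Both regions of Csf1r, the receptor that microglia need to survive, were kept in both KO libraries, as were those of P2ry13, P2ry6 and Tyrobp. The KO-only regions were at Mertk, a receptor for dead cells, with folds of 10.2 and 4.97, and Rgs10.

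At disease-associated microglial genes 2 of 20 WT regions were lost (10%, against 24.4% over all genes), at Cd52 and Ccl6, and 4 of 15 KO regions were KO-only (26.7%, against 16.1%). The KO-only regions were 2 at Ch25h, the cholesterol 25-hydroxylase, with folds of 9.55 and 4.77 at chr19:34464367-34465059 and 7.31 and 6.89 at chr19:34472026-34473642, 1 at the Apoe promoter (chr7:19698730-19700015), with folds of 5.86 and 5.74, and 1 near Fth1. None of the 4 overlapped IRF8, which overlapped only 39.4% of all KO-only regions. Apoe and Ch25h had no WT consensus region. With so few regions, these shares are counts from 2 libraries a genotype and no test was run on them. Trem2 had 1 region, kept in both KO libraries with folds of 13.6, 7.24, 10.2 and 9.18.

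Interferon and antigen presentation genes had few regions, with none in either genotype at 27 of 38 genes. Of 16 WT regions 6 were lost (37.5%, against 24.4% over all genes). These were 3 of 5 at Cd86, a co-stimulator of T cells, and the single regions of B2m, H2-Ab1 and Irgm1. The Cd86 promoter region (chr16:36642559-36643202) had folds of 11.6 and 4.76, and Cd86 had no KO consensus region. The B2m (strength 24.5) and H2-Ab1 (48.6) promoter regions were weak, and Irgm1 (84.7) was not. Of 10 KO regions 2 were KO-only (20%, against 16.1%), at H2-K1 and Ifnar2.

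Innate sensing and inflammation genes lost 5 of 43 regions (11.6%, against 24.4% over all genes): at the Naip2 promoter (chr13:100201903-100202201, folds 8.17 and 13.8), in Tlr4 (chr4:66843133-66843685, folds 10.4 and 8.62), and near Casp8, Il6 and Tnfaip3. Naip2 belongs to a family of near-identical neighbouring genes, in which reads can be placed on the wrong copy. The 4 KO-only regions of 35 (11.4%, against 16.1%) were near Cxcl2, with folds of 8.05 and 9.18, Il1a, Tlr13 and Ptgs1. At Fc receptor, integrin and kinase genes 8 of 81 regions (9.88%, against 24.4% over all genes) were lost, at genes that included Inpp5d, Btk, Dock2, Itgb2, Ncf4 and Pik3cg. The strongest of these was in Inpp5d (chr1:87648737-87649328), which encodes the phosphatase SHIP1, with folds of 9.58 and 7.59 and a KO region 1.3 kb away. Their KO-only regions, 4 of 75 (5.33%, against 16.1%), were 2 at Ptprc, 1 at Dock8 and 1 at Pik3cg.

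Of 3325 genes with a WT region, 1045 had at least 1 lost region, 125 at least 2 and 24 at least 3. At 673 of the 3325 every WT region was lost. The genes of this paragraph were chosen after their values were seen. At Igf1r, the receptor of insulin-like growth factor 1, all 4 WT regions were lost, and at Smad7, an inhibitor of TGF-beta signalling, all 3, as at P3h2, Papolg and Plppr4. Each of the 7 regions at Igf1r and Smad7 overlapped IRF8, as did 80.8% of all lost regions. Igf1r, Smad7, P3h2, Papolg and Plppr4 had no KO consensus region. They were chosen for having lost every WT region, which makes a KO consensus region there less likely. Slc9a9, Ccr6 and Tiam1 each lost 4 of 5 regions and Sh3pxd2a 4 of 6. There were 683 KO-only regions assigned to a gene, against 1202 lost ones, and 635 genes had at least 1 KO-only region, 44 at least 2 and 4 at least 3. The last were Itga4, an integrin of circulating leukocytes (3 of 5 KO regions), Atp8b4 (3 of 3), Rbpj, the DNA-binding effector of Notch (3 of 5), and Rreb1 (3 of 6). Lost and KO-only regions were nearest to the same gene at 71 genes, out of the 1045 with a lost and the 635 with a KO-only region. Whether 71 is many or few for such numbers was not tested.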

How the data were processed

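Peak lists of the adult PU.1, IRF8, H3K27ac and H3K4me1 libraries were used as deposited. Per the file headers, the authors called peaks per library with MACS (2.2.7.1 for PU.1 and IRF8, 2.2.6 for histone marks) from paired-end fragments, duplicates kept and the larger of library and control scaled down. The deposited lists give each peak's pileup (fragment coverage signal), fold enrichment (a ratio to the control) and −log10 p-value and q-value. Per the submitters' processing notes, the build is mm10 and the tools include Bowtie2 and Trim Galore.

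The members, gene lists and named regions were chosen with earlier results of these data known. Regions were merged at 1 bp overlap and annotated with GENCODE vM21 in Python 3.11.15 (pandas 2.3.3, numpy 2.4.6, pysam 0.24.0), and the class rule was checked on simulated lists. Named were the 12 lost, 12 KO-only and 8 kept regions of highest strength, leaving out regions over 100 kb from a start, at least 50% repeat-masked, or at genes named Gm with a number or ending in Rik, every listed gene with a lost or KO-only region, Spi1 and Irf8. A few listed genes that met this rule are not reported here. Sequences are 60 bp to each side of the motif nearest the centre, from the GRCm38.p6 genome (mm10). Alternatives changed thresholds, overlap, windows and libraries. No test across regions was run, since regions are not replicates.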

Additional observations from a re-analysis of the deposited data

How the results depend on the processing

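With 2 libraries a genotype, each value rests on which regions both lists held. Setting a −log10 q of at least 2 in all lists left the lost and KO-only shares and the differences in promoter share, strength, marks and motif within their intervals, except the strength difference of KO-only regions, -17 in place of -17.7. It was not run for the gene lists. The lost and KO-only shares were 28.1% and 19.6% at a −log10 p of at least 10, 26.5% and 17.8% when an overlap had to cover at least 0.5 of the shorter region, 24.9% and 17.6% at equal list length, and 48% and 39.1% against the consensus of the other genotype. The replicate numbers share a control and threshold, but nothing in the labels pairs the mice, and the lists give no clear pairing: WT replicate 1 shared 24.1% with KO replicate 1 and 20.5% with KO replicate 2, and WT replicate 2 shared 26% and 22.3%. With the replicate number as a block, 1 list against 1 list, the lost share was 61.9% and the KO-only share 60.6%. The log2 difference in peak number was -0.47 for replicate 1 and 0.40 for replicate 2, of opposite sign. Their mean of -0.03 had to equal the value without the block, so it adds no check.

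Leaving out 1 library puts a single list in place of a consensus. The lost share then ranged from 35.6% to 58.6% and the KO-only share from 24.3% to 58.2%. Part of this is fixed by the rule: leaving out a KO list can only raise the lost share, and leaving out a WT list the KO-only share. For lost minus kept regions, the ranges were -34 to -15.9 for strength, and in percentage points -13.9 to -10.4 for promoters, -46.5 to -7.83 for IRF8, -40.2 to -2.54 for WT H3K27ac, -32.5 to -23 for KO H3K27ac, -34.1 to -0.978 for WT H3K4me1, -38.2 to -9.24 for KO H3K4me1 and -0.701 to 3.57 for the composite motif. For KO-only minus shared KO regions they were -45 to -15.7 for strength, -15.3 to -4.17 for promoters, -68.5 to -31.5 for IRF8, -61.5 to -11 for WT H3K27ac, -32.3 to -5.82 for KO H3K27ac, -55 to -5.19 for WT H3K4me1, -50.6 to -0.604 for KO H3K4me1 and -2.81 to -1.46 for the motif. The log2 difference in peak number ranged from -0.32 to 0.25 and was 0.12 without KO replicate 1. Apart from what the rule fixes, the cause of these changes was not tested.

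Ranked by fold enrichment, the strength difference of KO-only regions was -16.2. The motif difference was 0.813 percentage points within 100 bp of the summit and 8.7 within 200 bp for lost regions, and -5.45 over the whole region for KO-only ones. Within quartiles of strength, an alternative chosen after seeing the data (as was the 200 bp summit window), the difference was -4.1 for IRF8 and -1.63 for WT H3K27ac in lost regions and -13 for promoters in KO-only regions. The other alternatives, on promoter distance, pileup, IRF8 libraries, gene assignment, presence within 1 kb and repeats left out, kept direction and stayed within the interval of the result.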
